A study of Mus musculus with 6 samples.

Results

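The genes examined here are 10 members of the EGF family system: the ligands Areg, Ereg, Hbegf, Tgfa, Btc and Egf, the receptors Egfr, Erbb2 and Erbb3, and Lrig1, a membrane protein that restrains these receptors. They were listed by symbol, with earlier results of these data known, and all 10 were found among the 27998 genes of each library. Single-cell transcriptomes had been collected with 10x 3' version 2 chemistry from small-intestinal epithelial cells of C57BL/6J mice aged 8 weeks. There were 6 libraries, 3 from wild-type (WT) mice and 3 labelled Itgb7 KO, and the study's title concerns T cells that carry the αEβ7 integrin and intestinal stem cells. Itgb7 encodes the β7 subunit. No further allele or treatment is labelled in either group, and the labels do not name the deleted part of Itgb7, the tissue in which it was lost or the number of mice per library. Nothing says that the libraries of a group came from separate animals, so each p-value refers to library-to-library spread, part of which may be technical.

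EGF family ligands are made as membrane-bound precursors, and ADAM proteases cut most of them free. Areg, Tgfa and Egf bind the receptor EGFR, while Hbegf, Btc and Ereg also bind ERBB4. ERBB2 has no known ligand and acts as a partner of the other receptors, and ERBB3 binds neuregulins but has little kinase activity of its own. In the intestinal crypt EGF signals sustain the division of stem cells, and Lrig1 is known there both as a brake on this signal and as a marker of stem and progenitor cells.

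The libraries held 26153 barcodes, with a median of 6079.5 to 22384 UMIs (unique molecular identifiers, each marking 1 captured RNA molecule) per barcode and 28475253 to 76133693 UMIs per library. Replicate 1 of both groups stood apart in depth, with the 2 highest medians of UMIs per barcode. Replicate 3 labelled Itgb7 KO was the shallowest, with the lowest median and the lowest total. It also had the highest median share of mitochondrial UMIs (5.11%) and 76 of the 107 barcodes later removed for such UMIs. Each library labelled Itgb7 KO had a lower median than the WT library of the same number. Pairs of libraries shared 12 to 42 barcodes. After filtering, 25068 cells remained, and 24526 of them fell into 8 epithelial classes named from marker genes. The classes were formed without the EGF family and pathway genes, so these did not choose the cells in which they were then measured. Crypt cells were the 3628 stem-like and 7133 transit-amplifying-like cells (dividing progenitors). Villus cells were the 4703 lower-villus and 3571 mature enterocyte-like cells. There were further 4426 goblet-like, 315 Paneth-like, 641 enteroendocrine-like and 109 tuft-like cells. The targeted transcript, Itgb7, had 3, 8 and 2 UMIs in WT and 18, 33 and 12 UMIs under the Itgb7 KO label. This goes against the label. A 3' tag may also lie outside the deleted part, so this group is given by its label throughout, and each genotype direction rests on the labels.

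Of the ligands, Areg, Ereg and Btc lie with Epgn, a further family ligand, within 376 kb of mouse chromosome 5 (positions 91027464 to 91402994, GENCODE M21, mm10). Their levels across classes are given below. Upstream sequence is shown for Areg, the member with the largest difference towards the villus, and for Lrig1 and Egfr, the 2 members higher in the crypt; these 3 were picked after their values were seen. Each run is the 250 bases before the RefSeq start (GRCm38.p6), 5' to 3' on the strand of the gene, with matches to the searched motifs in capitals. The last 13 bases of the Lrig1 run lie inside the gene as GENCODE M21 draws it.
Areg, chr5:91139349-91139598, plus strand: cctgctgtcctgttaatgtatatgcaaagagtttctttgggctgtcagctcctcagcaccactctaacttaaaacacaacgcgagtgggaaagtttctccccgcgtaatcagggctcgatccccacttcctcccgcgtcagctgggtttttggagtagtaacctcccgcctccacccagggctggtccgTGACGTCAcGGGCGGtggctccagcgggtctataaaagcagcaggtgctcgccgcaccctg
Lrig1, chr6:94700146-94700395, minus strand: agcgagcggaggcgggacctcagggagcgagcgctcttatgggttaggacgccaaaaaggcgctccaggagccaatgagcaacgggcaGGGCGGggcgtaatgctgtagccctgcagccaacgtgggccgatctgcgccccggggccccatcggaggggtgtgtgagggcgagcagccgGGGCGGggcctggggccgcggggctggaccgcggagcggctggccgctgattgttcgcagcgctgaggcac
Egfr, chr11:16751953-16752202, plus strand: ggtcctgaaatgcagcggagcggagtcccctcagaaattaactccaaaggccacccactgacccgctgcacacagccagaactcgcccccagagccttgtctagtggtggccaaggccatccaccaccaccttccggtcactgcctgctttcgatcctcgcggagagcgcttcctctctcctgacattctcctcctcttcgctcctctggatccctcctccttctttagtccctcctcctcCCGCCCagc
Motifs were searched on both strands as exact letters: the cAMP response element TGACGTCA, the GC box GGGCGG, the AP-1 site TGANTCA and the EGR site GCGTGGGCG. The Areg run held TGACGTCA, whose first base lies at -61 from the start, and next to it a GC box at -52. The cAMP response element was present in 1.55% of the 32851 mouse upstream windows of the same length, and the GC box in 32.7%. Lrig1 held 2 GC boxes, at -162 and -71, and Egfr 1, at -9, on the opposite strand (CCGCCC). AP-1 letters, found in 6.75% of all windows, and EGR letters, found in 0.536%, were in none of these 3 runs. RefSeq windows were matched for 7 of the 10 members. A match describes letters only.

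The first comparison asked whether the transcripts differ between crypt and villus within the same libraries. Of the 9 members tested, 8 differed: 6 were higher in the villus (Areg, Ereg, Hbegf, Erbb3, Erbb2 and Tgfa) and 2 in the crypt (Lrig1 and Egfr). Differences between the zones were common among all genes, with 40.5% of 12537 tested genes called higher in the crypt and 39.5% higher in the villus. Called means an adjusted p under 0.05 in edgeR's quasi-likelihood test with the library as a block. The median of the 9 members was -0.58 log2 crypt over villus, against 0.01 for all genes tested, and their median size was 0.90 against 0.50. With plain library sizes in place of TMM scaling, the median of all genes moved from 0.01 to 0.17 and the share of calls that were higher in the crypt from 50.6% to 61.3%. No member changed direction under that scaling, and Btc was then also called.

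Areg encodes amphiregulin, an EGFR ligand known for its part in tissue repair. In crypt cells the WT libraries held 10.9, 30.6 and 28.7 CPM (the gene's UMIs per 1000000 UMIs of the zone), and the libraries labelled Itgb7 KO 11.1, 19.8 and 21.5. The villus values were 55.8, 157.6 and 124.1 CPM in WT and 43.7, 104.2 and 105.9 in the labelled libraries. Every villus value was above every crypt value, and replicate 1 of each group was the lowest of its group in both zones. The log2 difference of crypt over villus was -2.42 ± 0.05 (SE, edgeR adjusted p = 1.41e-16), and 1.74% of tested genes lay further towards the villus. Leaving out replicate 1 of both groups gave -2.46.

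Hbegf encodes heparin-binding EGF-like growth factor. Its crypt values were 57.7, 93.8 and 100.3 CPM in WT and 39.1, 72.0 and 61.3 in the libraries labelled Itgb7 KO. In the villus they were 113.8, 184.6 and 210.7 CPM in WT and 93.5, 199.1 and 176.4 in the labelled libraries. Villus exceeded crypt in all 6 libraries, by a log2 difference of -1.37 ± 0.07 (SE, crypt over villus, edgeR adjusted p = 4.38e-12). The ranges of the zones overlapped across libraries, because the villus of the labelled replicate 1 lay below the crypt of WT replicates 2 and 3.

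Ereg encodes epiregulin. It was rare, with 82 UMIs in all crypt cells and 197 in all villus cells. Crypt values were 0.477, 0.731 and 1.05 CPM in WT and 0.156, 0.384 and 0.329 in the libraries labelled Itgb7 KO. The corresponding villus values were 1.40, 2.40 and 2.85 CPM and 0.830, 2.52 and 1.76 CPM. In each library the villus was higher, and the fitted log2 difference was -2.02 ± 0.20 (SE, edgeR adjusted p = 5.59e-08).

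Tgfa, the gene of transforming growth factor alpha, was close to even. Crypt cells held 4.996 ± 0.76 CPM (SD, n = 6) and villus cells 6.02 ± 0.78. Villus was higher in 5 of 6 libraries and lower in WT replicate 3. The log2 difference was -0.42 ± 0.10 (SE, edgeR adjusted p = 0.00097).

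Btc, the gene of betacellulin, held 4.42 ± 1.86 CPM in the crypt and 3.32 ± 0.53 in the villus (SD, n = 6). Crypt was higher in 5 of 6 libraries, and the log2 difference of 0.18 ± 0.12 (SE) was not called (edgeR adjusted p = 0.170). It was called with plain library sizes (0.35), between stem-like and mature enterocyte-like cells alone (0.49) and without replicate 1 of both groups (0.31).

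Egf itself was too rare in either zone for the test. Crypt cells held 0.326 ± 0.128 CPM and villus cells 0.277 ± 0.121 (SD, n = 6), from 52 and 28 UMIs in all.

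**Figure D1:**
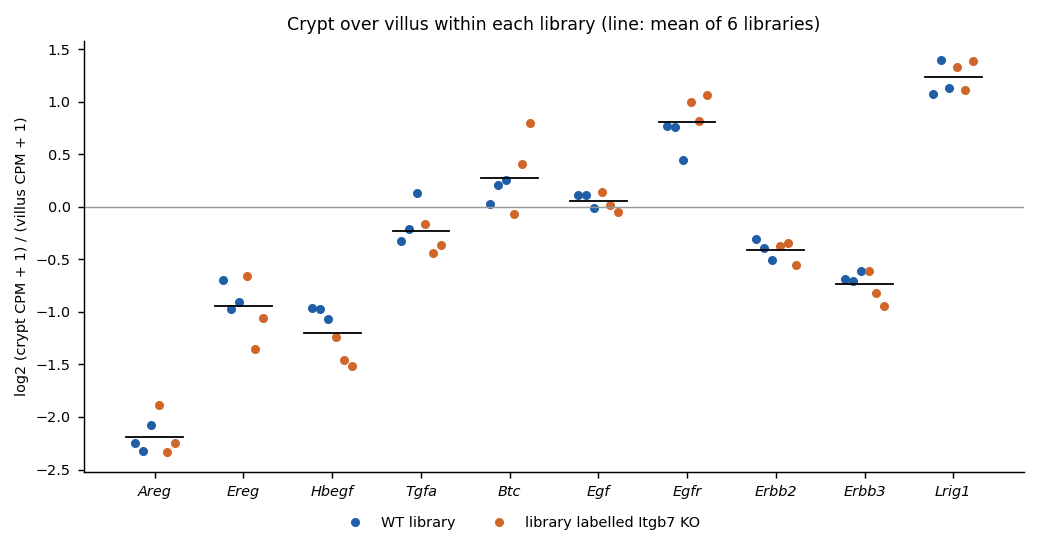
Each point is 1 library and gives log2 of crypt CPM + 1 over villus CPM + 1 on the vertical axis for the gene on the horizontal axis, with WT in blue, libraries labelled Itgb7 KO in orange and the mean of 6 libraries as a line. Areg, Ereg, Hbegf, Erbb2 and Erbb3 lie below 0 in all 6 libraries, and Egfr and Lrig1 above 0 in all 6.

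Among the receptors, Egfr alone was higher in the crypt. Egfr encodes the receptor that binds the 6 ligands measured here. Its crypt values ranged from 9.27 to 12.3 CPM over the 6 libraries and its villus values from 4.30 to 6.88, so the zones did not overlap. The log2 difference was 0.71 ± 0.09 (SE, edgeR adjusted p = 6.07e-07). Erbb2, the co-receptor, held 27.5 ± 3.56 CPM in the crypt and 36.8 ± 2.66 in the villus (SD, n = 6), with a log2 difference of -0.58 ± 0.05 (SE, edgeR adjusted p = 2.86e-09). For Erbb3, the neuregulin receptor, crypt values were 33.3 to 45.5 CPM and villus values 59.7 to 71.8. These ranges were apart, and the log2 difference was -0.90 ± 0.05 (SE, edgeR adjusted p = 1.71e-11).

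Lrig1, the receptor inhibitor, was higher in the crypt. In crypt cells the WT libraries held 23.8, 24.3 and 26.8 CPM and those labelled Itgb7 KO 23.2, 17.7 and 14.6. Villus values were 10.7, 8.62 and 11.7 CPM in WT and 8.60, 7.68 and 4.96 in the labelled libraries. All crypt values were above all villus values. The log2 difference was 1.15 ± 0.07 (SE, edgeR adjusted p = 2.28e-11), and 12.7% of tested genes lay further towards the crypt.

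The levels of each member were then ordered over the 7 classes that had at least 20 cells in every library. These levels were plain CPM, a share of the UMIs of the class, without TMM scaling. Very abundant products of a class lower the shares of its other genes. Goblet markers summed to 25630 to 37320 CPM of all epithelial cells in WT and 22530 to 36200 under the Itgb7 KO label. The part of such products in the class order was not tested. The 2 enterocyte-like classes may also differ by region, as lower-villus clusters 9 and 18 were led by Fabp6, a gene of the distal intestine. The part of region in the steps between these classes was not tested. Each pair of neighbours in an order was compared within libraries by an exact 2-sided sign-flip permutation test of log2(CPM + 1), whose smallest p with 6 libraries is 0.031. Of 60 neighbour pairs, 15 were ordered alike in all 6 libraries and reached that p. None passed adjustment over the 60 pairs (lowest adjusted p = 0.125), so each order below is a description with its count of libraries. The 109 tuft-like cells were left out, with as few as 10 in a library.

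Areg was highest in mature enterocyte-like and goblet-like cells. Mature enterocyte-like cells held 106.2, 288.8 and 201.1 CPM in WT and 77.9, 191.7 and 187.8 in the libraries labelled Itgb7 KO. Goblet-like cells, the mucus producers, held 50.9, 217.7 and 173.4 CPM and 85.3, 174.8 and 193.9 CPM. These 2 classes could not be ordered (4 of 6 libraries, exact permutation p = 0.156) and held 37.6% and 37.1% of the Areg UMIs of the epithelium. Stem-like cells held 17.8 ± 5.82 CPM (SD, n = 6), the lowest of the 7 classes but for enteroendocrine-like cells at 16.6 ± 4.49. Within the enterocyte lineage, lower-villus cells (32.8 ± 15.98 CPM) lay above dividing progenitors (21.6 ± 9.62 CPM) in 6 of 6 libraries (exact permutation p = 0.031, adjusted p = 0.125).

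The Hbegf means increased in the order of stem-like, dividing, lower-villus and mature enterocyte-like cells. Stem-like cells held 56.6 ± 21.8 CPM and dividing progenitors 76.8 ± 25.02, higher in 6 of 6 libraries (SD, n = 6). Lower-villus cells held 123.0 ± 45.2 CPM and mature enterocyte-like cells 209.8 ± 53.3, again higher in 6 of 6 (adjusted p = 0.125 for either step). Goblet-like cells, at 115.3 ± 32.3 CPM, did not differ from lower-villus cells beyond the spread (4 of 6 libraries, exact permutation p = 0.719). Paneth-like cells, the antimicrobial cells of the crypt base, were lowest at 31.0 ± 17.4 CPM.

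Ereg had its highest means in enterocyte-like cells. It held 2.41 ± 1.44 CPM in mature and 1.60 ± 0.85 in lower-villus enterocyte-like cells (SD, n = 6), which could not be ordered. In goblet-like cells 3 of 6 libraries had no Ereg UMI and 9 UMIs were found in all, although the same cells held 7758 Areg UMIs. Enterocyte-like cells of both villus classes held 197 of the 296 Ereg UMIs.

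Egf, unlike Ereg, was found mainly in goblet-like cells. Goblet-like cells held 203 of its 339 UMIs (59.9%), at 2.74, 4.68 and 3.47 CPM in WT and 3.10, 3.04 and 4.50 in the libraries labelled Itgb7 KO. Each goblet-like value was above those of the crypt and enterocyte-like classes, whose highest value in any library was 0.634 CPM. Paneth-like cells held 7.30 ± 4.63 CPM (SD, n = 6), but on 52 UMIs and on only 1 of them in the labelled replicate 3. Paneth-like cells were higher than goblet-like cells in 5 of 6 libraries (exact permutation p = 0.0938, adjusted p = 0.216). Goblet-like cells exceeded stem-like cells, the next class, in 6 of 6 libraries (adjusted p = 0.125).

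Btc and Tgfa also had their highest tested means in goblet-like cells. Btc held 8.12 ± 2.36 CPM there and 5.88 ± 2.72 in stem-like cells, with the goblet-like value higher in 6 of 6 libraries (SD, n = 6, exact permutation p = 0.031, adjusted p = 0.125). Tgfa held 7.60 ± 1.10 CPM in goblet-like and 6.33 ± 1.12 in mature enterocyte-like cells (SD, n = 6), with 5 of 6 libraries in that order. Its lowest mean was in Paneth-like cells, at 2.64 ± 2.21 CPM.

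By plain CPM, Erbb2 and Erbb3 had lower class means in the secretory goblet-like and Paneth-like classes than anywhere in the enterocyte lineage. Erbb2 held 14.4 ± 3.71 CPM in goblet-like and 8.86 ± 3.29 in Paneth-like cells, against class means of 24.8 to 37.1 from stem-like to enterocyte-like cells. Erbb3 reached 74.3 ± 6.00 CPM in mature enterocyte-like cells and was higher there than in lower-villus cells in 6 of 6 libraries. It held 34.3 ± 4.55 CPM in goblet-like and 22.2 ± 7.56 in Paneth-like cells (SD, n = 6). The Egfr means decreased from stem-like cells (12.4 ± 1.69 CPM) through dividing progenitors (9.99 ± 1.62) and lower-villus cells (6.51 ± 1.11) to mature enterocyte-like cells (4.75 ± 1.53, SD, n = 6), with overlapping ranges at each step. Goblet-like cells, at 4.24 ± 0.88 CPM, could not be ordered against mature enterocyte-like cells (3 of 6 libraries). Lrig1 held 33.2 ± 7.36 CPM in stem-like cells and 16.8 ± 3.47 in dividing progenitors (SD, n = 6). That step, 0.94 ± 0.10 on the log2 scale (SD, n = 6), was seen in 6 of 6 libraries. It did not hold between all clusters of these classes. Progenitor cluster 1 held 28.1 ± 6.12 CPM of Lrig1, above stem-like cluster 2 at 23.5 ± 4.86 (SD, n = 6). Stem-like clusters 4 and 11 had means of 36.9 and 39.9 CPM, and the remaining progenitor clusters 8.89 to 21.2.

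**Figure D2:**
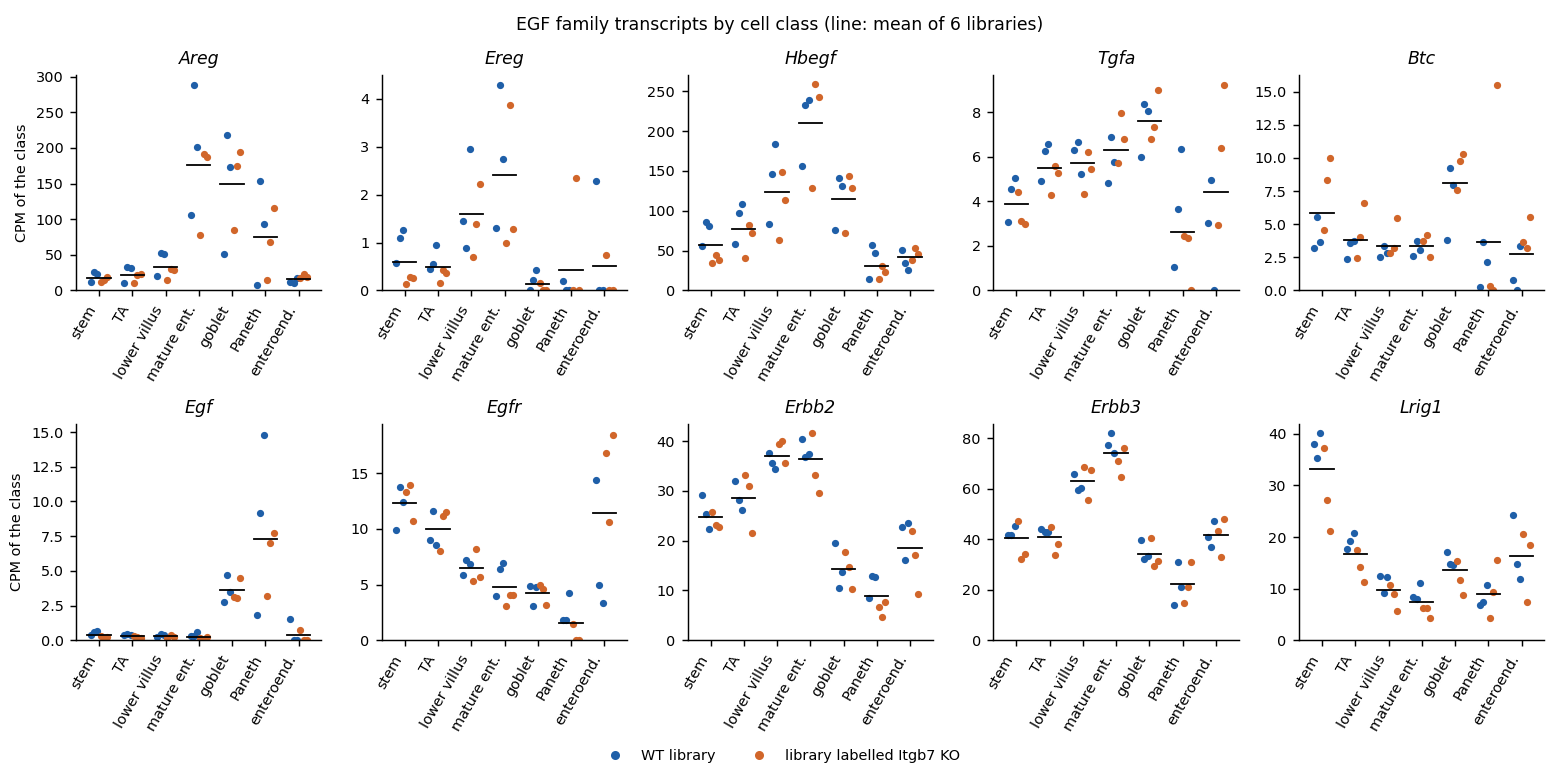
Each panel is 1 gene, and each point gives its CPM (vertical axis, linear and starting at 0) in 1 library for a cell class (horizontal axis), with WT in blue, libraries labelled Itgb7 KO in orange and the mean of 6 libraries as a line. By their means, Areg is highest in mature enterocyte-like and goblet-like cells, which overlap, Hbegf in mature enterocyte-like cells, Egf in Paneth-like and goblet-like cells and Lrig1 in stem-like cells.

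The ligands also varied between clusters of 1 class. The top 10 genes of clusters 10 and 15 held as many lower-villus as mature enterocyte markers (2 each), so their name rests on the top 50 and contrasts with them may be contrasts between these 2 classes. Among cells named mature enterocyte-like, the 502 cells of cluster 22, led by Apoa4 and Apoa1 of lipid transport, held 438.2 ± 237.6 Areg CPM (SD, n = 6). The 1040 cells of cluster 10, led by Reg1, held 23.0 ± 10.3 CPM, and in each library fell within 8.03 to 39.4 CPM. Clusters 8 and 15, the latter also led by Reg1, both held a mean of 182.4 CPM. Cluster 10 was also the lowest of the 4 for Hbegf in each of the 6 libraries, while the other 3 overlapped, with means of 290.5 ± 104.8 CPM in cluster 22, 268.5 ± 58.4 in cluster 15, 247.5 ± 60.6 in cluster 8 and 74.7 ± 30.8 in cluster 10. Lower-villus cluster 17, led by Rbp7, held only 40.5 Hbegf CPM and 9.44 Areg CPM by its means. The other lower-villus clusters had Hbegf means of 85.0 to 181.1 CPM. Among dividing progenitors, clusters 7 and 14 had Hbegf means of 123.7 and 130.7 CPM, and the other clusters 38.5 to 69.9. Cluster 14 had the lower-villus marker Rbp7 in its top 10 and only 3 transit-amplifying markers in its top 50. Its name is therefore less certain than that of cluster 7. Cluster 13, at 61.8 CPM, also had Rbp7 in its top 10. Ereg held 6.04 ± 3.88 CPM in cluster 22 and 4.26 ± 1.88 in cluster 9, a lower-villus cluster led by Fabp6, a gene of the distal intestine. Cluster 18, likewise led by Fabp6, held 1.47 ± 1.25 CPM of Ereg, and the other lower-villus clusters had means of 0.301 to 1.28 CPM. Goblet-like cluster 3 held 345.9 ± 142.3 Areg CPM, against 46.0 to 98.1 as means of the other goblet-like clusters. Egfr reached a mean of 27.5 ± 20 CPM in the 151 enteroendocrine-like cells of cluster 27, led by Chgb, Tac1 and Tph1 of serotonin-producing cells, but 1 library held as few as 9 of these cells and the values ran from 0 to 54.0 CPM. The other enteroendocrine-like clusters held 5.44 ± 3.46 and 8.37 ± 3.21 CPM.

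**Figure D3:**
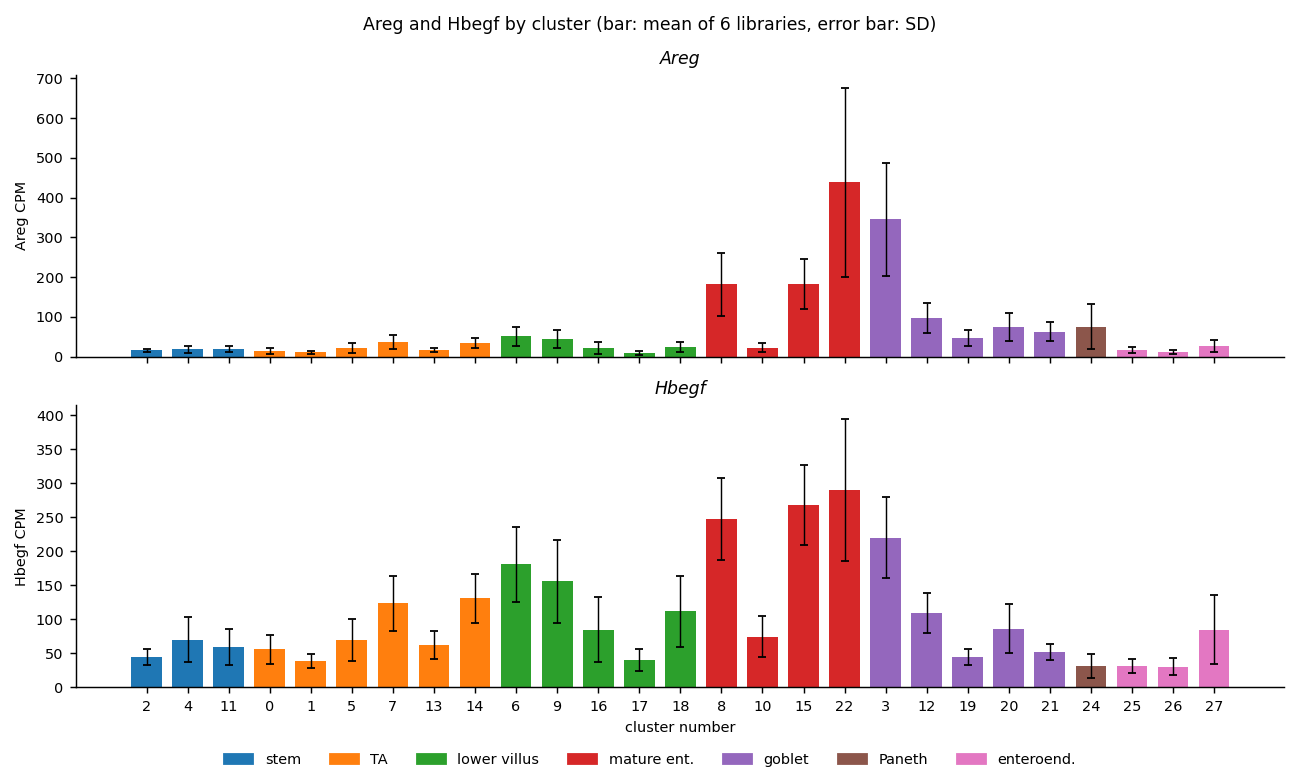
Bars give the mean CPM of Areg (upper panel) and Hbegf (lower panel) over 6 libraries in each named cluster (horizontal axis, coloured by class), and error bars the SD. Areg is highest in mature enterocyte-like cluster 22 and goblet-like cluster 3, and cluster 10, whose name rests on the top 50 genes, lies near the crypt clusters.

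Immediate early genes, which cells switch on within minutes of a stimulus or of stress, varied with Areg between the mature enterocyte-like clusters, but not evenly across classes. Between libraries they varied with Areg and Hbegf in part. Goblet-like cluster 3 was led by genes of this kind (Fosb, Cyr61 and Dusp1), and such genes took part in forming the clusters. With all libraries pooled, the summed level of 16 immediate early genes was 13490 CPM in cluster 3, 5697 in cluster 22, 5283 in cluster 15, 4990 in cluster 8 and 1745 in cluster 10. Pooled Areg was nonetheless lower in cluster 3 (322.2 CPM) than in cluster 22 (436.0 CPM). Goblet-like cluster 12 had a sum of 6177 CPM with Areg at 90.4, and enteroendocrine-like cluster 27 a sum of 7484 CPM with Areg at 31.6. The 16 genes, all called immediate early here, include the heat-shock genes Hspa1a and Hspa1b. All 16 were called lower in the crypt than in the villus, beside the 39.5% of all genes. Their median log2 difference was -0.72 and remained -0.54 with plain library sizes. Zfp36 (-1.42 ± 0.04), Junb (-1.22 ± 0.04) and Atf3 (-1.53 ± 0.06, SE) had the lowest p. In the villus their sum was 2323, 3794 and 3495 CPM in WT and 2072, 4003 and 3967 in the libraries labelled Itgb7 KO, so that replicate 1 of each group was lowest, as it was for Areg and Hbegf. The part of these genes in the crypt to villus and cluster differences was not tested. Within the stem-like class, where Areg lay at 11.6 to 25.4 CPM, their sum was 1481 to 2970 CPM. Hbegf did not follow the sums throughout there. The labelled replicate 3 had a sum of 2499 CPM with Hbegf at 38.8, and WT replicate 1 a sum of 1729 CPM with Hbegf at 55.7. Across classes the levels did not run together throughout. Enteroendocrine-like cells had sums up to 7731 CPM and Areg of at most 23.4 CPM. Goblet-like cells had higher sums (5143 to 9806 CPM) than mature enterocyte-like cells (2637 to 5232 CPM) but a lower mean of Hbegf, and Paneth-like cells had sums up to 7521 CPM with Hbegf of at most 56.8 CPM.

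**Figure D4:**
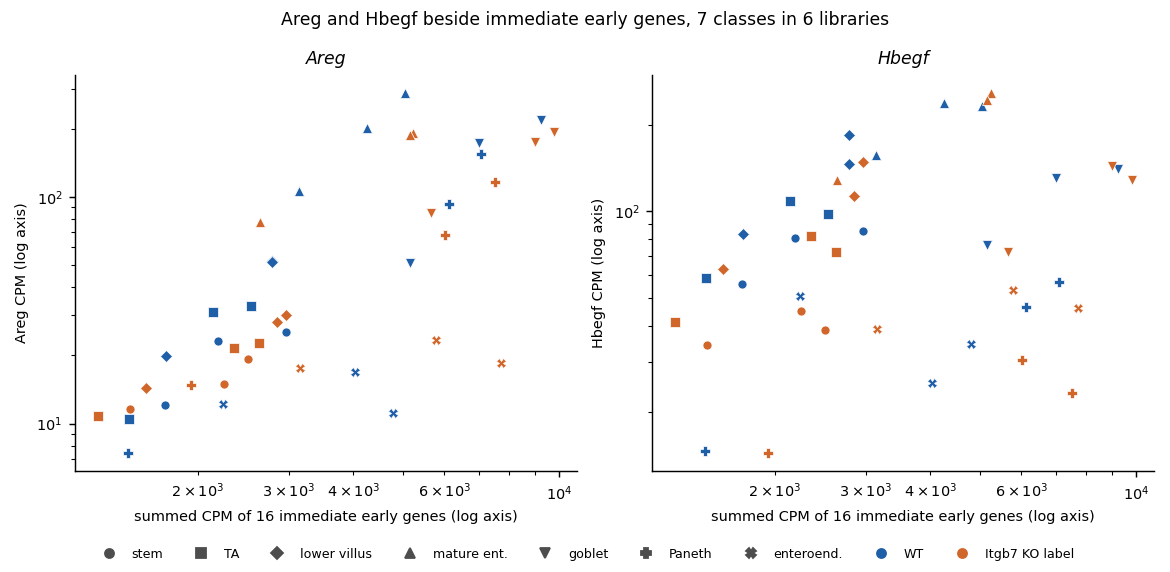
Each point is 1 cell class in 1 library and gives the CPM of Areg (left) or Hbegf (right) against the summed CPM of 16 immediate early genes, both on log axes, with the class as the symbol, WT in blue and libraries labelled Itgb7 KO in orange. Within most classes the libraries with lower sums, replicate 1 of each group, lie lower, while enteroendocrine-like cells combine sums of up to 7731 CPM with low Areg, and goblet-like and Paneth-like cells high sums with Hbegf below that of mature enterocyte-like cells.

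The comparison of genotype labels asked whether loss of Itgb7 goes with a change in these transcripts. None of the members was called in any group of cells by edgeR. The counts were 0 of 10 in all epithelial cells together (0.00738% of all tested genes called), 0 of 9 in crypt cells (0%), 0 of 9 in villus cells (0.00881%), 0 of 9 in goblet-like cells (0.00902%) and 0 of 6 in enteroendocrine-like cells (0%). DESeq2 called none either. At an unadjusted p under 0.05, edgeR gave 2 members in the crypt and none in the other groups. The median log2 difference of the members was -0.24 in the crypt and -0.09 in the villus, against 0.00 for all genes tested in both zones. All genes with an unadjusted p under 0.05 made up 3.12% in all epithelial cells, 2.81% in the crypt, 3.89% in the villus, 2.06% in goblet-like and 1.38% in enteroendocrine-like cells.

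The lowest unadjusted p values were those of Ereg and Hbegf in crypt cells. Crypt Ereg, from 14, 23 and 27 UMIs in WT and 4, 10 and 4 in the libraries labelled Itgb7 KO, did not overlap between the groups (log2 -1.40 ± 0.45, SE, edgeR adjusted p = 0.936). Hbegf in crypt cells, whose CPM are given above, overlapped at WT replicate 1 (log2 -0.56 ± 0.24, SE, edgeR adjusted p = 0.936). In stem-like cells alone Hbegf held 55.7, 85.6 and 80.5 CPM in WT and 34.3, 44.9 and 38.8 in the labelled libraries. These 3 against 3 values did not overlap (exact 2-sided permutation p = 0.1, the smallest the design allows). In stem-like cells 2 of the 9 members tested in the crypt did not overlap, Hbegf and Ereg, beside 7.96% of the genes tested. Egf, too rare for edgeR, did not overlap in crypt cells either, at 0.429 ± 0.076 CPM in WT and 0.223 ± 0.055 in the labelled libraries (SD, n = 3 each, 52 UMIs in all, exact 2-sided permutation p = 0.1). Villus cells held 0.362 ± 0.116 and 0.191 ± 0.035 CPM from 28 UMIs, also without overlap (SD, n = 3 each, exact 2-sided permutation p = 0.1). The shares of genes without overlap, 7.32% in the crypt and 9.61% in the villus, cover only genes tested by edgeR, which leave out Egf. Goblet markers in the same crypt cells summed to 1494 to 4537 CPM in WT and 1337 to 3241 in the labelled libraries, with 1 of 12 higher by its mean in the latter. Paneth markers summed to 246.1 to 6407 and 256.3 to 3230 CPM, with 0 of 11 higher, and the part of either list in the Egf values was not tested.

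Lrig1 had lower means in the libraries labelled Itgb7 KO in both zones. In all epithelial cells its WT mean was 17.97 ± 0.85 CPM and the labelled mean 13.2 ± 3.06 (SD, n = 3 each), without overlap (exact 2-sided permutation p = 0.1). In stem-like cells, where its mean was highest, Lrig1 held 37.8 ± 2.43 CPM in WT and 28.5 ± 8.10 in the labelled libraries (SD, n = 3 each). These stem-like values overlapped (exact 2-sided permutation p = 0.2). The log2 difference was -0.45 ± 0.21 in all cells, -0.43 ± 0.19 in the crypt and -0.51 ± 0.24 in the villus (SE, edgeR adjusted p = 0.946, 0.936 and 0.907). Without the labelled replicate 1 these values were -0.72, -0.67 and -0.70, and without the labelled replicate 3 they were -0.28, -0.29 and -0.33. The labelled replicate 3, lowest for Lrig1 in both zones, was also the shallowest library, and the part of depth was not tested. Within replicate 1, crypt values were nearly equal at 23.8 and 23.2 CPM. Over the other replicates the crypt means were 25.6 and 16.2 CPM. Of the members tested by edgeR, those without overlap numbered 1 of 10 in all cells (5.53% of all genes tested), 2 of 9 in the crypt (7.32%) and 1 of 9 in the villus (9.61%).

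The log2 difference of Areg was -0.44 ± 0.37 in the crypt and -0.38 ± 0.40 in the villus (SE), neither called. Leaving out single libraries gave -0.76 to -0.21 in the crypt and -0.69 to -0.08 in the villus. In villus cells the labelled library was lower within each of the 3 same-numbered pairs, and the fit with replicate number as a term gave -0.37 (edgeR adjusted p = 0.562). Within replicate 1 the crypt values of 10.9 and 11.1 CPM were nearly equal, whereas the means over the other replicates were 29.7 and 20.7 CPM. In goblet-like cells the means were 147.3 ± 86.4 CPM in WT and 151.3 ± 57.97 in the labelled libraries (SD, n = 3 each). Btc had higher means in the labelled libraries in both zones, with log2 0.55 ± 0.33 in the crypt and 0.30 ± 0.20 in the villus (SE), neither called. Its crypt value was 0.20 without the labelled replicate 3, the shallowest library, and 0.82 without the labelled replicate 1. In goblet-like cells it held 7.01 ± 2.86 CPM in WT and 9.23 ± 1.43 in the labelled libraries (SD, n = 3 each). Egfr differed by 0.05 ± 0.15 in the crypt and -0.24 ± 0.19 in the villus, and Erbb3 by -0.17 ± 0.16 and -0.02 ± 0.14 (SE). Erbb2 and Tgfa differed by -0.04 ± 0.18 and -0.24 ± 0.17 in the crypt and by 0.01 ± 0.14 and 0.03 ± 0.17 in the villus (SE). The villus values of Erbb2, Tgfa, Hbegf and Erbb3 and the crypt value of Erbb2 changed sign when single libraries were left out.

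**Figure D5:**
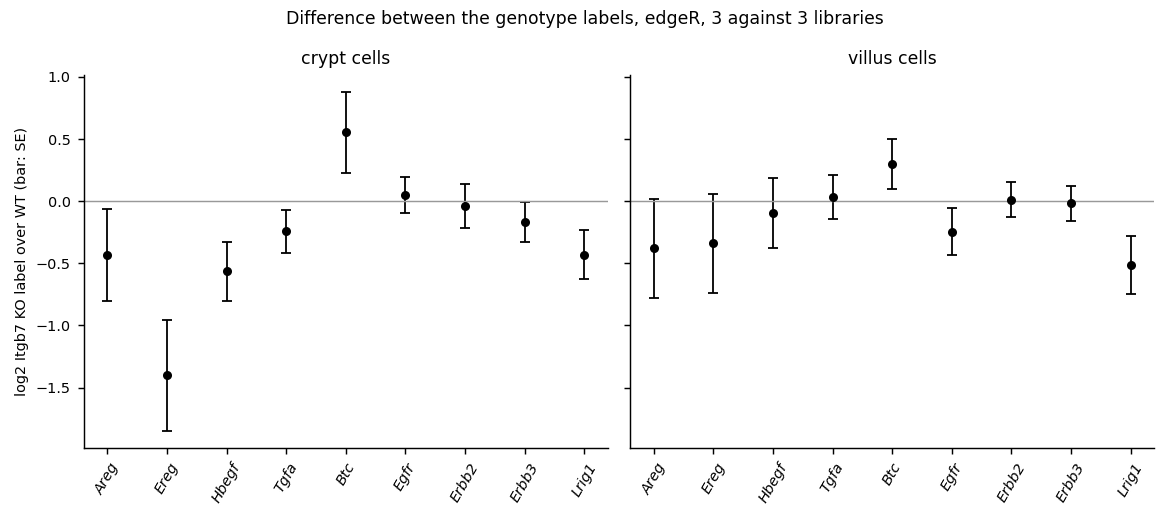
Points give the log2 difference of libraries labelled Itgb7 KO over WT (vertical axis) from edgeR for each tested gene (horizontal axis) in crypt cells (left) and villus cells (right), and bars give the SE. Ereg in the crypt, at -1.40, lies farthest from 0, and none of the values was called.

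Whether the genotype difference itself differed between the zones was tested as an interaction. edgeR called no member and no other gene (0%), with 2 members (Hbegf and Ereg) and 3.38% of all genes at p under 0.05 before adjustment. DESeq2 likewise called none. Hbegf had the lowest p. Its log2 ratio of crypt over villus CPM + 1 was -0.97, -0.97 and -1.06 in WT and -1.24, -1.46 and -1.51 under the Itgb7 KO label, which did not overlap. The share of all genes whose ratio did not overlap was not determined, so how common this is remains unknown. The Hbegf interaction was -0.45 ± 0.09 (SE, edgeR adjusted p = 0.293). A fit that also blocked on replicate number gave -0.45 and called it (adjusted p = 0.0482), but the pairing of libraries 2 and 3 is uncertain. DESeq2 gave an adjusted p of 0.0566, and over all alternatives it ran from 0.00032 to 1. The Ereg interaction was -1.05 ± 0.40 (SE, edgeR adjusted p = 1). All 16 immediate early genes had the same sign as Hbegf in this test, with a median of -0.17, and none was called, and their part in the Hbegf value was not tested. Markers of T cells, which can also make EGF family ligands, summed to 1.88 to 3.17 CPM over 12 genes in WT crypt cells and to 1.40 to 1.60 in those labelled Itgb7 KO, with 1 of the 12 at 0. In villus cells these sums were 0.427 to 2.73 and 0.151 to 0.430 CPM, with 4 of the 12 at 0. Myeloid markers (6 genes) summed to 3.47 to 4.06 CPM in WT crypt cells and 2.26 to 3.74 in the labelled ones. In villus cells they summed to 3.46 to 4.08 and 2.31 to 2.94 CPM. B and plasma cell markers (5 genes) went the other way in the villus, at 0.801 to 1.15 CPM in WT and 1.24 to 2.26 under the label. The part of such cells in the genotype differences was not tested.

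The other family members were rare. Erbb4 and Nrg3 had no UMI among the 329143870 of the named epithelial cells, which allows up to 0.00912 CPM, with counting error alone in view. Nrg1 had 1 UMI, Epgn 13 and Nrg2 29. Nrg4, a ligand of ERBB4, held 5.05 ± 0.70 CPM in stem-like and 0.724 ± 0.054 in goblet-like cells (SD, n = 6), and was called between crypt and villus with plain library sizes (log2 0.39) but not with TMM (0.23) or by DESeq2.

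The wider pathway was described with lists of fixed members, each read against the 40.5% and 39.5% of all genes called higher in the crypt and the villus. Of the genes that control ligand shedding, 3 of 6 tested were called higher in the crypt and 2 in the villus. Adam17, the protease that frees several EGF ligands, was higher in the crypt (log2 0.32 ± 0.07), as was its inhibitor Timp3 (1.65 ± 0.16), while Rhbdf2, which guides Adam17 to the surface, was lower there (-0.58 ± 0.09, SE). Genes of receptor turnover and inhibition were mostly higher in the villus, 6 of 7 (4 of 7 with plain library sizes), with Cblc at -1.08 ± 0.04, Errfi1, which blocks the EGFR kinase, at -0.58 ± 0.07 and Cblb at -0.53 ± 0.09 (SE). The Lrig1 relatives Lrig2 (-0.71 ± 0.10) and Lrig3 (-0.35 ± 0.07, SE) were both higher in the villus, unlike Lrig1.

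Feedback genes of the ERK cascade were split, with 3 of 9 tested called in each direction (3 and 1 with plain library sizes). Dusp5, an ERK phosphatase, was lower in the crypt (-1.48 ± 0.07), and Spred1 (0.68 ± 0.09) and Dusp7 (1.20 ± 0.17, SE) were higher. The relay genes were split as well, 7 higher in the crypt and 8 in the villus of 22, which became 12 and 7 with plain library sizes. Map2k1 (-0.74 ± 0.04), Map2k2 (-0.67 ± 0.03) and Mapk3 (-0.52 ± 0.03, SE) were higher in the villus. Of the transcripts known to follow ERK activity, 4 of 6 were higher in the crypt, among them Myc (2.53 ± 0.08) and Ccnd1 (0.75 ± 0.05), and 2 were lower (1 with plain library sizes), among them Fosl1 (-1.67 ± 0.13, SE). Between the genotype labels no gene of any of these lists was called in any group of cells.

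Genes with the most similar pattern were sought over 42 points, 7 classes in each of 6 libraries, among 9047 genes with at least 10 CPM in 1 class. The points share libraries and depth, and the values are descriptions. For Areg these were Cxcl16 (Pearson r = 0.91), Ifrd1 (0.90) and Sertad1 (0.88), and for Hbegf Pls1 (0.89), Perp (0.88) and Rfk (0.88). Lrig1 ran closest with the Wnt target Axin2 (0.90), Clca3b (0.90) and 1810032O08Rik (0.88). Axin2 was itself among the 15 stem markers used to name the classes. Egfr was most like Tmem209 (0.91), Pou2f1 (0.90) and B930036N10Rik (0.89). Erbb2 was most like Ncln (0.96), Mrpl15 (0.95) and Cox5a (0.95), and Erbb3 like Ndufa6 (0.96), Higd2a (0.94) and Sar1b (0.94). Among the members themselves, Erbb2 and Erbb3 gave r = 0.83, Hbegf and Erbb3 0.69, Areg and Hbegf 0.66 and Areg and Lrig1 -0.42.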

How the data were processed

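The deposited values were raw UMI counts (whole numbers) for each gene in each barcode, which the authors had not normalized. Per the submitters' processing notes, the tools were bcl2fastq 2.17.1.14 and Cell Ranger 2.1.1 with mm10, and Seurat without a version. Filters required 500 genes and 1000 UMIs per barcode and allowed mitochondrial UMIs up to 25% (3, 0 and 107 barcodes failed). Scrublet's own threshold marked only 103 barcodes, so its scores instead removed the top 0.8% per 1000 barcodes of each library (977 in all) as doublets. Cells were scaled to 10000 UMIs and embedded with 2000 variable genes, from which 71 EGF pathway genes were left out, and 30 principal components, with a library correction of the Harmony type. Leiden clustering (resolution 1.5, 15 neighbours, scanpy 1.11.5) gave 30 clusters. A class name needed at least 3 of its markers among a cluster's top 50 genes and the most markers in the top 10, with ties inside crypt or inside villus decided by the top 50 (clusters 6, 10, 11 and 15). After the clusters were seen, Paneth-like cells were named from the top 50, and 2 clusters (542 cells), 1 with over 10% mitochondrial UMIs and 1 with markers tied across zones, stayed unnamed. Names may differ from the study's own.

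UMIs were summed per library and class and tested with edgeR 4.0.16 (TMM, filterByExpr, Benjamini-Hochberg at 0.05), and DESeq2 1.42.0 was an alternative. The edgeR script was tested on simulated data. Single values were compared by exact permutation tests. A pseudocount of 1 was used for log2(CPM + 1), which understates changes of rare genes. Members, lists and tests were chosen with earlier results of these data known. All members were named, up to 3 called genes of each list with the lowest p, and the 3 genes most like each member with at least 10 CPM in 1 class. Gene identifiers matched GENCODE M21 for 27645 of 27998 genes.

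The labels number the libraries 1 to 3 in both groups. After centring on group means, same-numbered libraries correlated at 0.666, 0.283 and 0.279 in all epithelial cells, and the numbers were treated as pairs. The correlations set libraries 1 apart but did not clearly separate libraries 2 and 3. WT 2 correlated more with the labelled library 3 (0.476), and WT 3 nearly as much with the labelled library 2 (0.264). In crypt cells WT 3 correlated more with the labelled library 2 (0.224) than with 3 (0.154).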

Additional observations from a re-analysis of the deposited data

Results flagged for a closer look

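The genotype difference of Hbegf in crypt minus villus cells was singled out by a test of the difference itself. With the replicate number as a block its log2 value was -0.453 and was called by edgeR's quasi-likelihood test (adjusted p = 0.0482). Without the block the call was absent (adjusted p = 0.293). The ratio of crypt over villus was lower in each library labelled Itgb7 KO (-1.51 to -1.24) than in each WT library (-1.06 to -0.97, log2 of CPM + 1). The share of all genes with such a separation was not determined.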

How the results depend on the processing

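Each count of members was recomputed with DESeq2, plain library sizes, no filter on low counts, pathway genes kept in the clustering, resolution 1.0, cells with at least 5000 UMIs (not run for enteroendocrine-like cells, too few in a library), at most 10% mitochondrial UMIs, a replicate block or a block of 2 groups of library numbers where it could be fitted, and each library left out. Crypt and villus were also compared without the library term and as stem-like against mature enterocyte-like cells, and the class order with a pseudocount of 5. A fit without replicate 1 of both groups was chosen after seeing the data. The 8 calls between crypt and villus kept their direction and side of the threshold throughout. Btc became called with plain library sizes, between stem-like and mature enterocyte-like cells and without replicate 1 of both groups. No member was called between the genotype labels under any of these. The replicate block changed no other call than that of Hbegf below. The 15 neighbour pairs ordered alike became 16 to 22 under the alternatives for the class order. The interaction gave 1 called member in place of 0 with the replicate block and 1 with no filter on low counts (Hbegf, -0.44, adjusted p = 0.00032), and the cause was not tested. Over the alternatives its value ran from -0.52 to -0.38, and the adjusted p from 0.00032 to 1.

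Values near 0 that changed sign were those of villus cells between genotype labels for Tgfa (-0.0076 at most 10% mitochondrial UMIs) and Erbb2 (-0.0093 with plain library sizes, -0.0152 at 5000 UMIs, -0.0040 at most 10% mitochondrial UMIs, -0.0203 without replicate 1 of both groups), the Areg interaction (0.0251 with plain library sizes) and the Lrig1 interaction (-0.0589 without replicate 1 of both groups). Crypt Hbegf between genotype labels ran from -0.75 to -0.37 when single libraries were left out. Such fits also moved values through 0. Between genotype labels these ran from -0.1748 to 0.09152 for crypt Erbb2 and, in the villus, from -0.2878 to 0.1488 for Hbegf, -0.05545 to 0.1291 for Tgfa, -0.1014 to 0.08856 for Erbb2 and -0.08345 to 0.09328 for Erbb3. For the interaction they ran from -0.1098 to 0.09732 for Areg, -0.0905 to 0.02281 for Erbb2 and -0.02918 to 0.1828 for Lrig1.

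Over all genes, edgeR called 1, 0, 1, 1 and 0 between genotype labels in all, crypt, villus, goblet-like and enteroendocrine-like cells, and DESeq2 25, 11, 10, 16 and 0. Low counts kept Egf out of the tests in crypt and villus, Ereg out of that in goblet-like cells and 4 members (Ereg, Tgfa, Btc and Egf) out of that in enteroendocrine-like cells.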
